A study of Gallus gallus with 6 samples.

Results

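The genes described here are the potassium channel genes of chicken skeletal muscle, taken as every row of the deposited expression table whose symbol starts with KCN. There were 77 such genes among 18239 in the table. They were compared between soleus, a leg muscle, and pectoralis major, the breast muscle, of broiler chickens (Gallus gallus) aged 180 days, with 3 RNA sequencing libraries of each muscle. No genotype or treatment separates the groups, and all tissue was taken from both sides of the body after slaughter. The series describes these muscles as very different in the types of fibre they hold. Nothing in the labels ties a library to a bird, and the p-values below therefore measure the spread among these 6 libraries, part or all of which may be technical.

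Potassium channels let potassium ions leave or enter a cell, and so set the resting voltage of a muscle fibre and bring it back to rest after each action potential. Voltage-gated channels open when the membrane depolarises, inward rectifiers hold the membrane near the potassium equilibrium, two-pore channels carry a background leak, and calcium-activated channels open when calcium rises in the cell. Auxiliary subunits do not form a pore and change how the pore-forming proteins open or reach the membrane. By symbol, 33 members were voltage-gated pore-forming or modifier subunits, 10 inward rectifiers, 13 two-pore channels, 7 calcium-activated channels and their relatives, and 14 auxiliary or regulatory subunits.

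Levels are FPKM, fragments scaled to gene length and library total, so they can be set side by side between genes. The soleus libraries held 38534335 to 39079981 fragments and the pectoralis major libraries 36309597 to 37123092, and for a 1-kilobase gene a single fragment equalled 0.0256 to 0.0275 FPKM. The slow fibre markers MYH7B, MYL3, MYL2, TNNI1, MYOZ2 and CSRP3 summed to 9373 to 12737 FPKM in the soleus libraries and 0.682 to 4.82 FPKM in the pectoralis major libraries. The fast fibre markers MYH1E, TNNI2, TNNT3 and MYL1 summed to 16486 to 21367 FPKM in soleus and 44623 to 49339 FPKM in pectoralis major. MYL2 had a value of 0 throughout pectoralis major.

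Most potassium channel genes were low. Of the 77 members, 20 reached 1 FPKM in 3 or more libraries and were tested with limma on log2(FPKM + 1), and 57 were under this filter. Of the 20 tested members, 13 rose and 3 fell in soleus at an adjusted p under 0.05, and 4 did not pass. Over all 9616 genes tested, 57.3% were called, 40.0% higher and 17.4% lower in soleus (3844 and 1670 genes), a split that became 2026 and 2837 genes under median-ratio scaling and 2147 and 2320 under quantile normalization; of the members, 10 and 3 were called under each. Every soleus library was above every pectoralis major library for 12 of the 20 tested members, against 45.0% of all tested genes, and the reverse held for 3, KCNQ5, KCNJ12 and KCNE3, against 19.9%. With no filter, 25 of the 77 members were called higher, against 23.7% of all 18239 genes, and 1, KCNJ12, lower, against 8.58%. The filter favours differences, since 5 of the 20 members passed it only through soleus and 0 only through pectoralis major (KCND3, KCNF1, KCNH6, KCNH7 and KCNK15 being those of soleus), so the counts of tested members are a description. Of all 9616 tested genes, 625 passed it only through soleus and 78 only through pectoralis major. The median log2 difference was 0.84 for the tested members and 0.26 for all tested genes. Scaling moved that reference point: the median of all tested genes was -0.04 under median-ratio scaling and 0.45 when the totals excluded genes encoded in mitochondria, where the members stood at 0.61 and 1.04. Log2 differences of FPKM below take pectoralis major from soleus after 1 was added to each FPKM, so that the change of a low gene is understated, and are to be read against those shifts. In bulk muscle, a change in the number of cells of a type and a change in RNA per cell cannot be told apart.

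Summed over its members, the voltage-gated family had 46.4, 37.5 and 41.7 FPKM in soleus libraries 1 to 3, against 14.1, 8.04 and 8.78 FPKM in pectoralis major libraries 1 to 3. The 2 muscles did not overlap, and the ratio of the means was 4.06 as deposited and 3.06 under median-ratio scaling. The two-pore sums averaged 20.6 ± 4.73 FPKM in soleus and 4.99 ± 1.57 FPKM in pectoralis major (SD, n = 3 each), and those of calcium-activated channels and their relatives 27.3 ± 1.08 and 8.14 ± 2.03 FPKM. The inward rectifiers differed least among the pore-forming families, with 40.9 ± 3.77 FPKM in soleus and 25.2 ± 4.19 FPKM in pectoralis major, a ratio of 1.62 that was 1.24 under median-ratio scaling. The auxiliary subunits averaged 9.41 ± 1.08 and 7.41 ± 1.87 FPKM, and their ratio changed side with the scaling, being 1.27 as deposited and 0.975 under median-ratio scaling. An exact permutation test of 3 against 3 libraries cannot go below p = 0.1, so these sums are given as description.

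**Figure D1:**
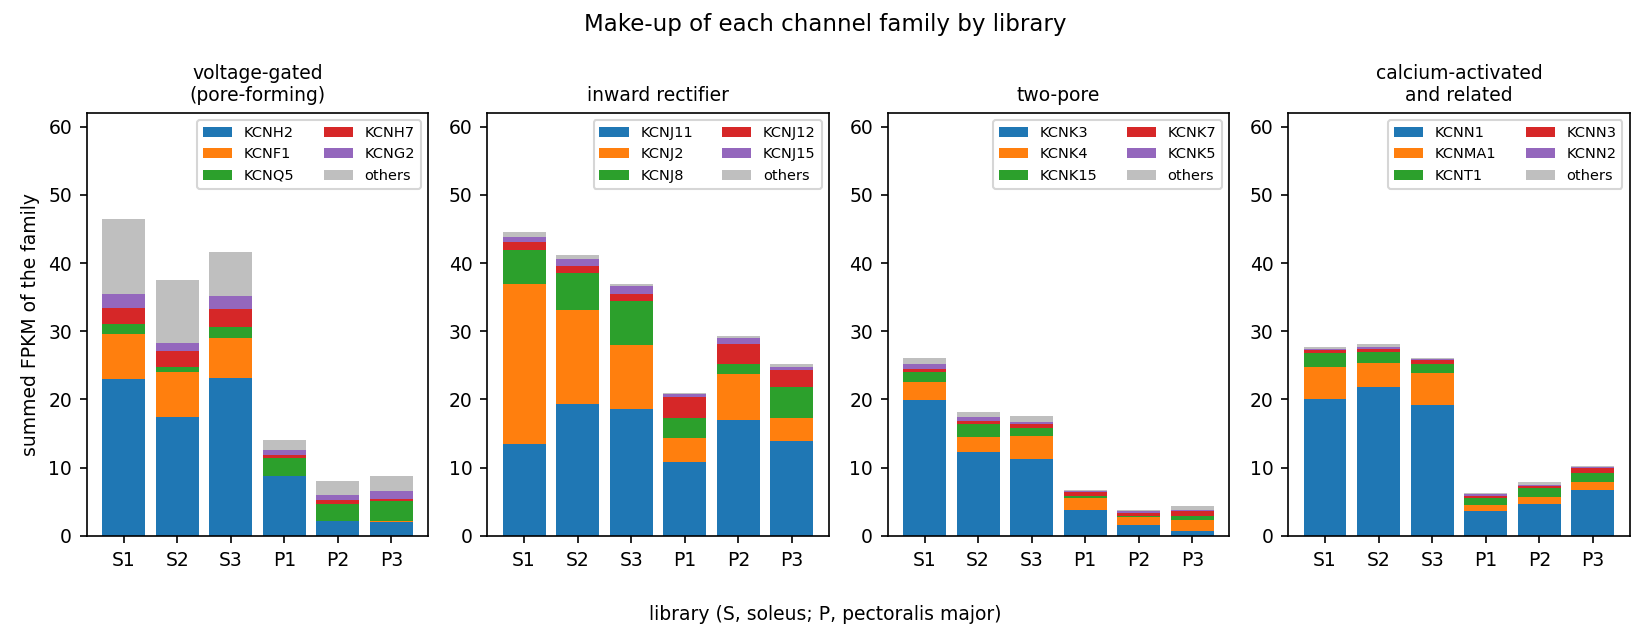
Summed FPKM of each pore-forming family in each library (S1 to S3, soleus; P1 to P3, pectoralis major), with the 5 most abundant members of the family in colour and the rest in grey. In every family shown, each soleus bar is higher than each pectoralis major bar. The inward rectifier bars, 37.0 to 44.5 FPKM in soleus and 20.9 to 29.3 FPKM in pectoralis major, are led by KCNJ11 and KCNJ2.

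Among the voltage-gated members, 7 were tested, of which 6 rose in soleus and 1 fell, against 40.0% and 17.4% of all tested genes. Of the 6, KCND3, KCNF1, KCNH6 and KCNH7 passed the filter only through soleus, and the call of KCNG2 ended under median-ratio scaling. The count is therefore a description. KCNH2 (gene number 100858122), the pore-forming ERG channel known for ending the cardiac action potential, had the highest FPKM of the family in every library but pectoralis major 2 and 3, where KCNQ5 was higher. It had 23.0, 17.5 and 23.1 FPKM in soleus libraries 1 to 3, against 8.73, 2.16 and 1.98 FPKM in pectoralis major libraries 1 to 3 (log2 difference 2.29 ± 0.40 SE, limma adjusted p = 0.00184). The muscles did not overlap, but pectoralis major library 1 stood 4.40-fold above library 3, and the difference was 2.84 without it. In that library KCNH2 made up 61.97% of the voltage-gated FPKM, against 26.8% and 22.6% in the other pectoralis major libraries, and it made up 50.6 ± 4.50% in soleus.

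The other members of the ERG subfamily also rose. KCNH6 (gene number 414871) had 1.95, 1.77 and 1.32 FPKM in soleus, against 0.0459, 0.0112 and 0 FPKM in pectoralis major (log2 difference 1.39 ± 0.12 SE, adjusted p = 4.2e-05). These levels stood on 940 fragments in soleus and 10 in pectoralis major, so that the gene was close to the limit of detection there. KCNH7 (gene number 424184) had 2.24, 2.45 and 2.61 FPKM in soleus, against 0.532, 0.604 and 0.345 FPKM in pectoralis major (log2 difference 1.20 ± 0.12 SE, adjusted p = 9.05e-05). For KCNH6 and KCNH7 every soleus library was above every pectoralis major library, and both kept their calls under every scaling and without any 1 library. Fits without a library kept the genes chosen with all 6, and both genes had passed the filter only through the 3 soleus libraries. KCNH6 was not tested with a filter on a mean of 1 FPKM. The remaining KCNH genes in the table, KCNH1, KCNH4 and KCNH5, had 5, 4 and 54 fragments over all 6 libraries.

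KCNF1 (gene number 428652), a modifier subunit that forms no channel alone and joins channels of the KCNB subfamily, showed the largest difference of the 20 tested members on the log2(FPKM + 1) scale, while the ratio of means was larger for KCNH6 (88.2). It had 6.57, 6.59 and 5.84 FPKM in soleus, against 0.0783, 0.0876 and 0.153 FPKM in pectoralis major (log2 difference 2.73 ± 0.11 SE, adjusted p = 7.95e-07). The soleus libraries were close to each other, and the mean was 59.5-fold that of pectoralis major. It supplied 15.2 ± 2.02% of the voltage-gated FPKM in soleus and 1.13 ± 0.595% in pectoralis major. KCNG2, another modifier subunit (gene number 395902), had 2.08, 1.15 and 1.91 FPKM in soleus, against 0.728, 0.747 and 1.15 FPKM in pectoralis major (log2 difference 0.52 ± 0.16 SE, adjusted p = 0.0239). Its libraries overlapped. Median-ratio scaling (adjusted p = 0.117), quantile normalization (0.626) and no filter (0.0729) each ended the call, as did omitting library 1 or 3 of soleus (0.0806 and 0.074) or library 1 or 2 of pectoralis major (0.0687 and 0.067).

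KCND3 (gene number 374228), a pore of the rapidly inactivating A-type current, had 2.49, 1.90 and 1.10 FPKM in soleus, against 0.0716, 0.0518 and 0.0426 FPKM in pectoralis major (log2 difference 1.39 ± 0.17 SE, adjusted p = 0.000317). The groups stood far apart, with a ratio of means of 33.1. With a filter on a mean of 1 FPKM the gene was not tested. KCNQ5 (gene number 421866), which carries a slowly activating, non-inactivating current of the M type, went the other way. It had 1.55, 0.648 and 1.65 FPKM in soleus, against 2.55, 2.39 and 2.96 FPKM in pectoralis major (log2 difference -0.70 ± 0.19 SE, adjusted p = 0.0128). Every pectoralis major library was above every soleus library, and KCNQ5 made up 27.2 ± 8.10% of the voltage-gated FPKM there and 3.01 ± 1.15% in soleus. Its call held in every alternative except the fit with no filter, where the adjusted p was 0.0507. The gene overlaps an unnamed gene in GRCg7b, and it is uncertain to which of them shared reads were given.

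**Figure D2:**
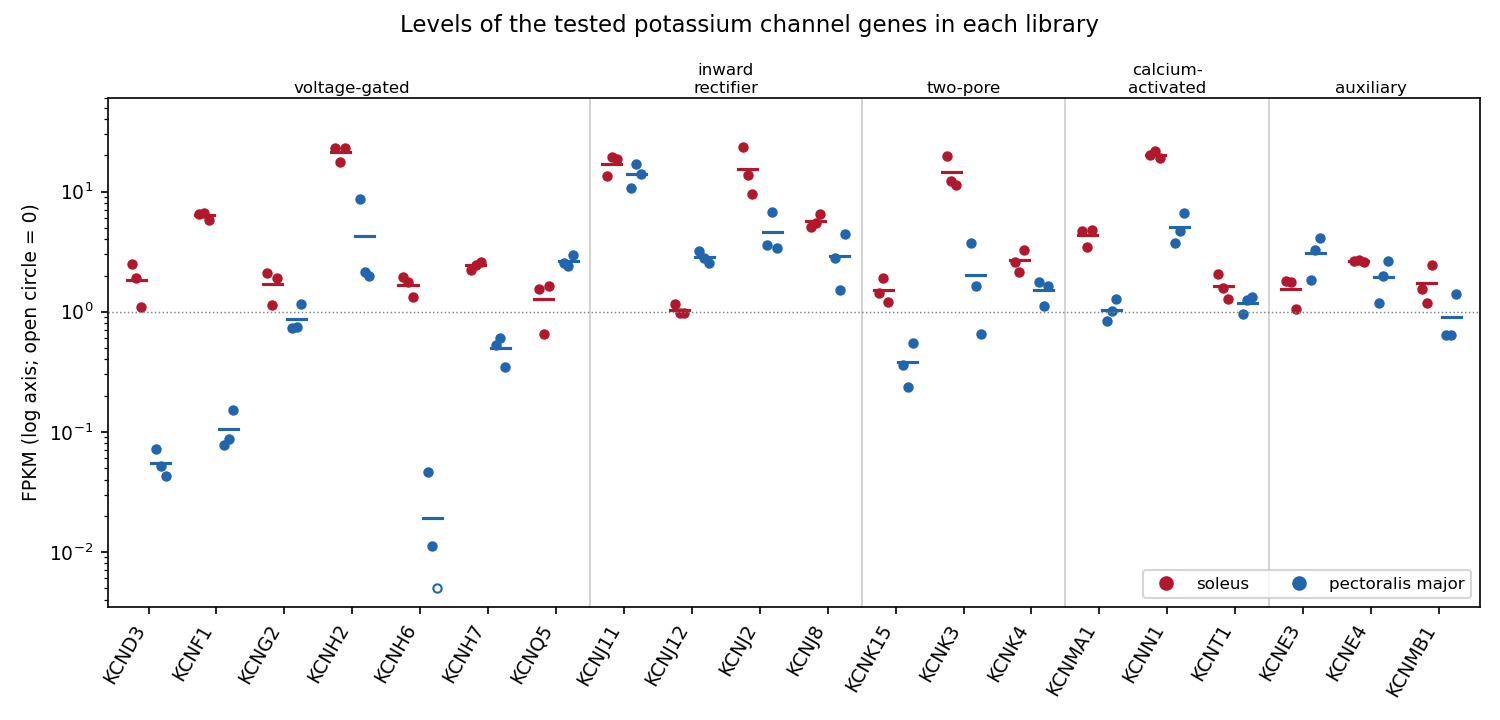
FPKM on a log axis of the 20 tested members in each library, with soleus in red left of pectoralis major in blue. Each point is a library and each bar the mean of 3; an open circle at the bottom marks a value of 0, and the dotted line marks 1 FPKM. KCND3, KCNF1 and KCNH6 lie at or below 0.153 FPKM in pectoralis major, while KCNQ5, KCNJ12 and KCNE3 are higher there.

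Of the 26 voltage-gated members under the filter, 20 had at least 10 fragments over the 6 libraries. These low genes were tested on fragment numbers with limma voom, a test added after the data were seen, over 15775 genes with at least 10 fragments. Of all 6159 such genes under the FPKM filter, 18.1% were called higher and 2.84% lower in soleus. Of the 20 low voltage-gated members, 8 were called higher and 0 lower. The following log2 differences are from that test, of fragments scaled to the library total.

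The subfamily KCNC, whose channels open and close fast at strong depolarisation, had 3 members in the table, all called higher in soleus. KCNC2 had 276, 254 and 135 fragments in soleus, against 5, 2 and 14 in pectoralis major (log2 difference 5.10 ± 0.86 SE, voom adjusted p = 0.00106). KCNC1 had 232, 204 and 192 fragments in soleus, against 55, 44 and 34 in pectoralis major (2.17 ± 0.34 SE, adjusted p = 0.000636). KCNC4 had 112, 69 and 48 fragments in soleus, against 1, 4 and 15 in pectoralis major (3.85 ± 0.89 SE, adjusted p = 0.00581). In none of these genes did the muscles overlap, and all 3 calls held under both other scalings, with the replicate block and without any 1 library. KCNC1 overlaps SERGEF in GRCg7b, so its level is uncertain. KCNC2 reached a mean of 1.10 FPKM in soleus, the highest of all members under the filter.

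KCND2, the close relative of KCND3 (gene number 374143), had 133, 60 and 80 fragments in soleus and 0 in all pectoralis major libraries. Set against 3 fragments over the pectoralis major libraries, it was at least 86.2-fold higher in soleus (voom adjusted p = 0.000704). The call held without any 1 library. KCNB2, a delayed rectifier pore with which the modifier subunits assemble, had 125, 179 and 92 fragments in soleus, against 14, 11 and 13 in pectoralis major (log2 difference 3.21 ± 0.56 SE, adjusted p = 0.00134). KCNG1, a modifier subunit, had 88, 112 and 139 fragments in soleus, against 10, 13 and 64 in pectoralis major (2.33 ± 0.60 SE, adjusted p = 0.00988).

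The KCNA subfamily, the Shaker-type channels, was low in both muscles. KCNA6 had 61, 48 and 49 fragments in soleus, against 23, 14 and 21 in pectoralis major (voom adjusted p = 0.0398), a call that ended with median-ratio scaling (adjusted p = 0.127) and on leaving out any 1 of the 6 libraries (0.0603 to 0.116). KCNA5 had 31, 31 and 18 fragments in soleus, against 22, 1 and 1 in pectoralis major (adjusted p = 0.0446), and its call was lost with the replicate block (adjusted p = 0.0791), under median-ratio scaling (0.085), without any 1 soleus library (0.0516 to 0.0981) and without pectoralis major library 2 or 3 (0.165 each). KCNA2 had 88 fragments over the soleus libraries and 78 over those of pectoralis major, KCNA3 had 52 and 47, and neither passed (adjusted p = 0.847 and 0.914). The 6 voltage-gated members under 10 fragments were KCNA1, KCNA4, KCNH1, KCNH4, KCNS1 and KCNS2.

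The inward rectifiers moved in opposite directions. KCNJ2 (gene number 396328), the classical inward rectifier that holds the resting voltage of muscle, had 23.4, 13.8 and 9.47 FPKM in soleus libraries 1 to 3, against 3.58, 6.80 and 3.40 FPKM in pectoralis major libraries 1 to 3 (log2 difference 1.53 ± 0.32 SE, adjusted p = 0.00414). The muscles did not overlap, although soleus library 1 was 2.47-fold above library 3. Its close relative KCNJ12 (gene number 427662) had 1.17, 0.973 and 0.974 FPKM in soleus, against 3.21, 2.82 and 2.53 FPKM in pectoralis major (log2 difference -0.92 ± 0.12 SE, adjusted p = 0.000426). Every pectoralis major library was above every soleus library, and both calls held under every alternative, leaving out any 1 library included. Of the inward rectifier FPKM, KCNJ2 made up 37.3 ± 13.9% in soleus and 17.9 ± 4.92% in pectoralis major. KCNJ12 made up 2.54 ± 0.151% in soleus and 11.7 ± 3.2% in pectoralis major.

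KCNJ11 (gene number 428846), the pore of the ATP-sensitive channel of muscle, had the highest FPKM of the inward rectifiers in every library but soleus 1, where KCNJ2 was higher, and did not pass the test. It had 13.5, 19.3 and 18.6 FPKM in soleus, against 10.8, 16.9 and 13.9 FPKM in pectoralis major (log2 difference 0.29 ± 0.19 SE, adjusted p = 0.23). The libraries overlapped, and the result moved with the scaling: the difference was -0.08 under median-ratio scaling, and 0.50 and called higher (adjusted p = 0.0477) with totals free of mitochondrial genes. Its sulphonylurea receptor partners did not pass either: ABCC8 averaged 4.60 FPKM in soleus and 3.31 FPKM in pectoralis major (adjusted p = 0.0705), and ABCC9 9.36 and 7.58 FPKM (adjusted p = 0.211). With totals free of mitochondrial genes both were called higher (adjusted p = 0.014 for ABCC8 and 0.0342 for ABCC9). In assembly GRCg7b, KCNJ11 lies next to ABCC8 and KCNJ8 next to ABCC9.

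KCNJ8 (gene number 395973), the ATP-sensitive pore known from vascular smooth muscle and pericytes, had 5.08, 5.44 and 6.46 FPKM in soleus, against 2.82, 1.53 and 4.43 FPKM in pectoralis major (log2 difference 0.83 ± 0.25 SE, adjusted p = 0.0216). The muscles did not overlap. Median-ratio scaling (adjusted p = 0.132), quantile normalization (0.109), no filter (0.074) and omitting soleus library 2 (0.0505) or 3 (0.0666) each ended the call. Without pectoralis major library 2 the difference was 0.54, and without library 3 it was 1.09. Of 8 smooth muscle and pericyte markers, 7 were called higher in soleus and MYOCD lower (4 higher and 1 lower under median-ratio scaling), with sums of 314.6 to 449.6 FPKM in soleus and 153.2 to 228.2 FPKM in pectoralis major; none was at 0 in all libraries, and their part in the KCNJ8 result was not tested.

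Of the 6 inward rectifiers under the filter, 5 had at least 10 fragments. Among these, voom called 1 higher and 1 lower, against 18.1% and 2.84% of all such low genes. KCNJ5, a subunit of G-protein-gated channels, had 310, 390 and 201 fragments in soleus, against 30, 40 and 16 in pectoralis major (log2 difference 3.33 ± 0.51 SE, adjusted p = 0.000631). Its gene model of 37987 bases overlaps KCNJ1 and ARHGAP33 in the RefSeq table of GRCg7b, so reads of those genes may be counted in it. KCNJ16 had 0 fragments in every soleus library and 4, 17 and 23 in pectoralis major, at least 15.5-fold lower in soleus (adjusted p = 0.0123). That call was lost without any 1 soleus library (adjusted p = 0.0523 to 0.0542). KCNJ16 is the neighbour of KCNJ2 in GRCg7b, and the adjacent genes were thus higher in opposite muscles.

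All 3 tested two-pore channels rose in soleus as deposited, against 40.0% of all tested genes. KCNK15 passed the filter only through soleus, and the call of KCNK4 ended under median-ratio scaling. KCNK3 (gene number 428382), an acid-sensitive background channel of the TASK type, had the highest FPKM of the family in every library but pectoralis major 3, where KCNK4 and KCNK7 were higher. It had 19.9, 12.4 and 11.3 FPKM in soleus libraries 1 to 3, against 3.74, 1.64 and 0.653 FPKM in pectoralis major libraries 1 to 3 (log2 difference 2.46 ± 0.36 SE, adjusted p = 0.000731). Every soleus library was above every pectoralis major library, the pectoralis major libraries spanning a 5.74-fold range, and the call held in every alternative. KCNK3 made up 69.8 ± 6.17% of two-pore FPKM in soleus, against 55.4%, 43.2% and 14.8% in pectoralis major libraries 1 to 3.

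KCNK15, a relative of KCNK3 (gene number 419191), had 1.43, 1.91 and 1.21 FPKM in soleus, against 0.362, 0.236 and 0.551 FPKM in pectoralis major (log2 difference 0.86 ± 0.14 SE, adjusted p = 0.00118). It did not overlap between muscles, and its call held under every scaling and without any 1 library. Those fits without a library kept the genes chosen with all 6. With a filter on a mean of 1 FPKM KCNK15 was not tested. KCNK4 (gene number 423536), a mechanically gated channel of the TRAAK type, had 2.61, 2.15 and 3.26 FPKM in soleus, against 1.76, 1.11 and 1.65 FPKM in pectoralis major (log2 difference 0.55 ± 0.16 SE, adjusted p = 0.0174). The call ended with median-ratio scaling (adjusted p = 0.175), quantile normalization (0.42), no filter (0.0559) and voom over genes with 10 or more fragments (0.0545), and when library 3 of soleus (0.0642) or library 2 of pectoralis major (0.0554) was omitted. KCNK4 made up 30.9 ± 5.87% of two-pore FPKM in pectoralis major and 13.5 ± 4.52% in soleus.

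Of the 10 two-pore members under the filter, 9 had at least 10 fragments. Among these, voom called 3 higher and 0 lower, against 18.1% and 2.84% of all such low genes. KCNK5, an alkaline-activated channel, had 200, 198 and 122 fragments in soleus, against 32, 67 and 49 in pectoralis major (log2 difference 1.75 ± 0.40 SE, adjusted p = 0.00539). KCNK10, a mechanically gated channel of the TREK type, had 23, 12 and 22 fragments in soleus and 0 in all pectoralis major libraries, at least 18.0-fold higher (adjusted p = 0.0031). Both held without any 1 library, and KCNK10 overlaps SPATA7 and KCNK13 an unnamed gene in GRCg7b. KCNK13 had 82, 108 and 63 fragments in soleus, against 27, 17 and 51 in pectoralis major (adjusted p = 0.0356), a call that ended with median-ratio scaling (adjusted p = 0.121) and when library 1 or 2 of either muscle was omitted (0.0724 to 0.126). KCNK7 had 76, 57 and 83 fragments in soleus, against 73, 58 and 113 in pectoralis major, and did not pass (adjusted p = 0.673).

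Among calcium-activated channels and their relatives, 2 of 3 tested members rose in soleus, against 40.0% of all tested genes. KCNN1 (gene number 429723), a small-conductance channel gated by calmodulin, was the most abundant. It had 20.0, 21.9 and 19.1 FPKM in soleus, against 3.70, 4.74 and 6.69 FPKM in pectoralis major (log2 difference 1.85 ± 0.18 SE, adjusted p = 0.000106). KCNMA1 (gene number 374065), the large-conductance channel opened by calcium and voltage together, had 4.73, 3.49 and 4.81 FPKM in soleus, against 0.833, 1.02 and 1.27 FPKM in pectoralis major (log2 difference 1.38 ± 0.15 SE, adjusted p = 0.000158). In both genes the muscles stood clear of each other, with ratios of means of 4.04 for KCNN1 and 4.18 for KCNMA1, and both held in every alternative. KCNMA1 is also known from smooth muscle, whose marker sums given above were likewise higher in soleus, and the part of those cells was not tested.

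KCNT1 (gene number 395248), a channel activated by sodium, had 2.07, 1.57 and 1.27 FPKM in soleus, against 0.965, 1.25 and 1.32 FPKM in pectoralis major and did not pass (log2 difference 0.27 ± 0.14 SE, adjusted p = 0.134). Its libraries overlapped, and its difference was -0.14 under quantile normalization, and 0.42 and called higher (adjusted p = 0.0311) with totals free of mitochondrial genes. The 4 members under the filter, KCNN2, KCNN3, KCNT2 and KCNU1, all had at least 10 fragments, and 0 were called by voom. KCNN3, known in mammals from denervated muscle, had 143, 144 and 189 fragments in soleus, against 98, 84 and 187 in pectoralis major (adjusted p = 0.405). KCNT2 had 49, 104 and 96 fragments in soleus, against 18, 35 and 47 in pectoralis major, and did not pass (adjusted p = 0.0663), whereas the fit with replicate number as a block gave 0.0211.

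**Figure D3:**
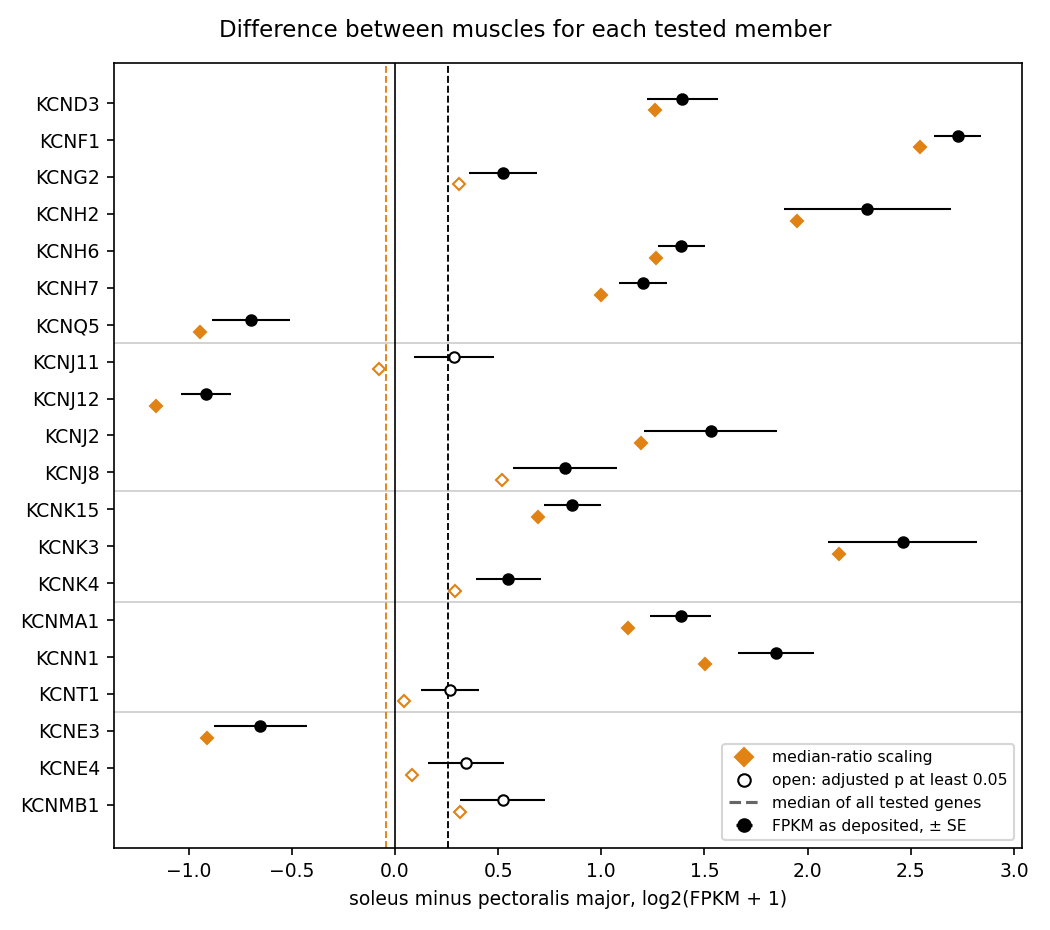
Difference between soleus and pectoralis major on the log2(FPKM + 1) scale for the 20 tested members, ordered by family. Black circles are values as deposited ± SE and orange diamonds values under median-ratio scaling; open symbols did not pass, and dashed lines are the medians of all tested genes, 0.26 and -0.04. KCNF1, KCNK3 and KCNH2 lie farthest to the right and KCNJ12, KCNQ5 and KCNE3 to the left of 0.

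Among the auxiliary subunits, 3 were tested, of which 0 rose and 1 fell, against 40.0% and 17.4% of all tested genes. KCNE3 (gene number 428105), a single-pass partner of voltage-gated channels, had 1.81, 1.76 and 1.05 FPKM in soleus, against 1.83, 3.26 and 4.13 FPKM in pectoralis major (log2 difference -0.65 ± 0.23 SE, adjusted p = 0.0359). The groups barely parted, with 1.81 FPKM in soleus library 1 and 1.83 FPKM in pectoralis major library 1. Its call was lost with voom (adjusted p = 0.0726), with no filter (0.108), with totals free of mitochondrial genes (0.0713) and without any 1 library other than pectoralis major library 1 (adjusted p = 0.0548 to 0.119). KCNE4 (gene number 771271), of the same family and the highest auxiliary member in every soleus library, had 2.67, 2.67 and 2.60 FPKM in soleus, against 1.17, 2.00 and 2.65 FPKM in pectoralis major, and did not pass (adjusted p = 0.142). It was called higher with totals free of mitochondrial genes (adjusted p = 0.0377) and without pectoralis major library 3 (0.0345), and its difference was -0.02 under quantile normalization.

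KCNMB1 (gene number 395301), the beta subunit of the large-conductance channel known from smooth muscle, had 1.56, 1.19 and 2.43 FPKM in soleus, against 0.638, 0.644 and 1.40 FPKM in pectoralis major (log2 difference 0.52 ± 0.21 SE, adjusted p = 0.056). Libraries 3 were the highest of each muscle, and the gene passed with the replicate number as a block (adjusted p = 0.00415), with totals free of mitochondrial genes (0.0245) and on leaving out library 2 of soleus (0.0354) or library 3 of pectoralis major (0.0184). KCNMB2, another beta subunit of that channel, was under the filter and had 283, 274 and 251 fragments in soleus, against 46, 72 and 33 in pectoralis major (log2 difference 2.40 ± 0.34 SE, voom adjusted p = 0.000362). KCNMB4 had 46, 17 and 18 fragments in soleus, against 22, 11 and 21 in pectoralis major, and did not pass (adjusted p = 0.643). KCNMB1 and KCNIP1 overlap in GRCg7b, so reads in the shared stretch cannot be told apart without strand.

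Of the 11 auxiliary members under the filter, 9 had at least 10 fragments. Among these, voom called 3 higher and 1 lower, against 18.1% and 2.84% of all such low genes. KCNIP1, a calcium-binding partner of the KCND pores, had 127, 139 and 73 fragments in soleus, against 4, 2 and 15 in pectoralis major (log2 difference 4.21 ± 0.80 SE, adjusted p = 0.00199). KCNIP2, its relative, had 1, 0 and 1 fragments in soleus, against 126, 26 and 28 in pectoralis major (adjusted p = 0.0112). The KCND partners were thus higher in opposite muscles, with pectoralis major library 1 holding most KCNIP2 fragments. KCNIP4 had 1, 7 and 5 fragments in soleus and 0 in all pectoralis major libraries, at least 4.11-fold higher, and did not pass (adjusted p = 0.0821). KCNAB2, a cytoplasmic beta subunit of the KCNA channels, had 390, 327 and 271 fragments in soleus, against 133, 125 and 84 in pectoralis major (log2 difference 1.46 ± 0.28 SE, adjusted p = 0.00214), and overlaps CHD5 and NPHP4 in GRCg7b.

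**Figure D4:**
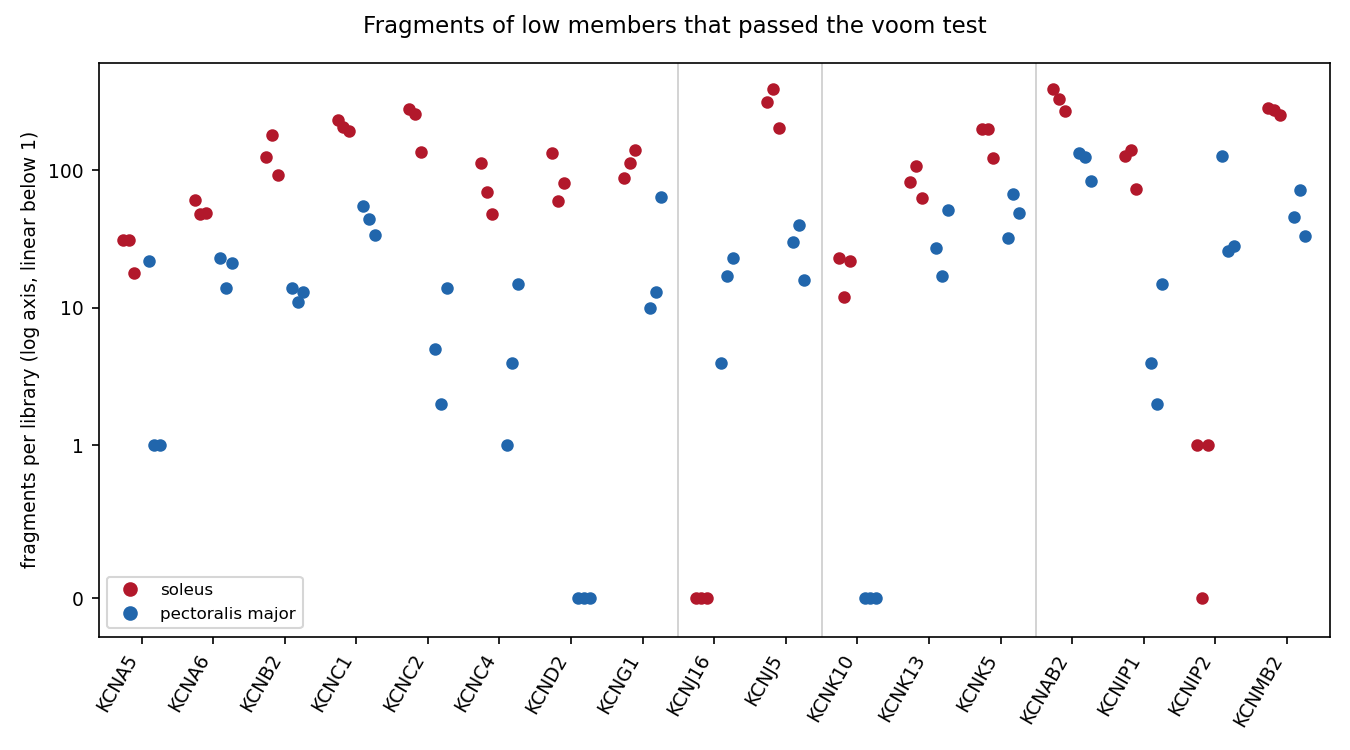
Fragments in each library, on a log axis that is linear below 1, of the 17 members under the FPKM filter that passed the voom test, with soleus in red left of pectoralis major in blue. KCND2 and KCNK10 have 0 fragments in every pectoralis major library and KCNJ16 has 0 in every soleus library. In 16 of the 17 genes the muscles do not overlap, and KCNA5 is the exception.

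Over all families, 47 low members had at least 10 fragments. Voom called 15 of them higher and 2, KCNJ16 and KCNIP2, lower in soleus. Of all 6159 such genes under the FPKM filter, it called 18.1% higher and 2.84% lower. The other 30 did not pass. They had 13 to 845 fragments over the 6 libraries, the muscles overlapped in 24 of them, and in 6 every soleus library was higher. The 10 members under 10 fragments had 1 to 9 in all, too few to compare at this depth. Together with the tested members, 67 members had at least 10 fragments. Voom called 31 of them, against 41.3% of all 15775 genes: 27 were higher in soleus, against 30.1%, and 4, KCNQ5, KCNJ12, KCNJ16 and KCNIP2, were lower, against 11.2%. In 32 of these every soleus library was above every pectoralis major library and in 5 the reverse held, which compares with 39.2% and 14.4% of all those genes.

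Genes that work with these channels or carry potassium by other means were taken from lists chosen by role. Of 11 tested partner genes, 2 rose and 2 fell in soleus, with a median log2 difference of 0.27; 7 were called higher with totals free of mitochondrial genes. DPP10, a partner of the KCND pores, rose with 1.59, 2.77 and 2.74 FPKM in soleus, against 0.424, 0.343 and 0.356 FPKM in pectoralis major (log2 difference 1.27 ± 0.16 SE, adjusted p = 0.000308). VAPB, which clusters KCNB channels in other cells, rose by a log2 difference of 1.84. VAPA, of the same list, did not pass (log2 difference -0.32 ± 0.17 SE, limma adjusted p = 0.14). Under median-ratio scaling its difference was -0.70 (adjusted p = 0.00803). CALM2, whose product calmodulin is the calcium sensor of KCNN channels among many other targets, fell by 1.79 on the log2 scale. It was the most abundant partner, with a mean of 198.3 FPKM in soleus and 679.5 FPKM in pectoralis major.

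Of 16 tested genes of potassium carriers and membrane charge, 12 rose and 1, TMEM38A, fell, against 40.0% and 17.4% of all tested genes. Their median log2 difference was 0.79. Under median-ratio scaling 11 were called higher and 2, TMEM38A and SCN4A, lower. Among the largest differences were those of FXYD6, a regulator of the sodium-potassium pump (2.42), the potassium-chloride carrier SLC12A5 (2.27) and the pump subunit ATP1B1 (2.02). TMEM38A, a potassium-permeable counter-ion channel of the sarcoplasmic reticulum, had the highest mean over the 6 libraries, with 119.7 FPKM in soleus and 206.2 FPKM in pectoralis major (log2 difference -0.78 ± 0.14 SE, adjusted p = 0.00219).

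Markers of other cells also differed between the muscles. All 9 endothelial markers rose, as did all 5 tested Schwann cell markers and 8 of 9 leukocyte markers, all 6 adipocyte markers, 5 of 7 fibroblast and tendon markers and 2 of 4 satellite cell markers, while 0 of 3 erythrocyte markers passed by limma. Summed levels were 177.4 to 217.3 FPKM in soleus and 91.5 to 104.1 FPKM in pectoralis major for endothelial markers, and 59.9 to 99.02 FPKM and 31.3 to 44.96 FPKM for Schwann cell markers. They were 1022 to 1125 FPKM and 524.4 to 673.7 FPKM for leukocyte markers, 383.2 to 509.5 FPKM and 95.2 to 100.5 FPKM for adipocyte markers, and 317.3 to 357.98 FPKM and 174.9 to 330.6 FPKM for fibroblast and tendon markers. Under median-ratio scaling 6 endothelial, 4 Schwann cell, 7 leukocyte, 6 adipocyte, 3 fibroblast and tendon and 1 satellite cell marker were called higher and 0 lower. No marker of these lists was at 0 in all 6 libraries, and the erythrocyte gene HBZ was at 0 in pectoralis major. How far such cells add to the channel levels was not tested.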

How the data were processed

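Total RNA of 6 muscle libraries was sequenced, per the labels' protocols. Per the submitters' processing notes, the tools were HISAT2, HTSeq, Cufflinks and R 3.2.0 and the build was GRCg6a; for other versions and the use of strand, nothing is given in the sources used here. The authors deposited FPKM values in 1 table. Coordinates are not given, since the gene table used for names and neighbours is of GRCg7b, in which all 77 members' gene numbers matched and 14 members overlap another protein-coding gene.

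The deposited FPKM of each gene could be turned back into whole fragments, taken as the smallest whole numbers that give the values. Each gene length was chosen to make its values whole, and 100.0% of 94897 nonzero values came out so (relative tolerance 1e-06). In data simulated from these fragments, all fragments were returned for 97.1% of 17879 genes. Mitochondrially encoded genes took 19.6 to 23.7% of soleus fragments and 7.03 to 8.66% of pectoralis major fragments.

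Genes with 1 FPKM or more in 3 or more libraries were compared on log2(FPKM + 1) by limma 3.58.1 (R 4.3.3), two-sided with a variance trend, with Benjamini-Hochberg adjustment over all 9616 genes and a threshold of 0.05. Low members were tested with limma voom on fragments over genes with at least 10. Both fits were tested on simulated data, but only for genes that passed the FPKM filter. How voom performs on the low members was therefore not simulated. Tables and figures used Python 3.11.15, numpy 2.4.6, pandas 2.3.3, matplotlib 3.10.9. A fold against 0 uses a floor of 3 fragments over the group. The floor covers counting error only, whereas SE and SD values reflect the spread among libraries.

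Members described are those that passed with an absolute log2 difference of at least 0.5 and the most abundant of each family. Also described are those with 0 fragments in a muscle and at least 10 in the other, and those meant by any count up to 5. Partner and carrier genes are up to 4 called ones of the largest difference and the most abundant of each list. ABCC8, ABCC9, VAPA and genes meant by a count up to 5 stand beside them. The other low members given by fragments were chosen after their values were seen. A few genes are not reported here. The members and lists were chosen with earlier results of these data known.

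The labels number the libraries of each muscle 1 to 3. Same-numbered libraries deviated together from their group means (r = 0.398, 0.445 and 0.367 for numbers 1 to 3, over tested genes), so a fit with the number as a block was an alternative, beside other scalings, filters, pseudocounts, voom and leaving out each library.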

Additional observations from a re-analysis of the deposited data

How the results depend on the processing

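The 5514 calls over all tested genes stayed within 1.5 times in every alternative. Of the 20 tested members, 13 were called higher, and 10 to 15 when leaving out each library. Over other sets of members, 25 of all 77 were called higher with no filter. With voom they were 27 of the 67 with at least 10 fragments. With no filter KCNG2, KCNJ8 and KCNK4 lost their calls, so the larger count came from members under the filter. The 3 tested members called lower were 1 with no filter and 2 to 3 when leaving out each library. With totals free of mitochondrial genes, KCNE4, KCNJ11, KCNMB1 and KCNT1 were also called higher, and KCNE3 lost its call. With the replicate block, 14 members were called higher and 3 lower, and the block changed no call of a member other than those of KCNMB1, KCNA5 and KCNT2. The median difference of the 20 tested members, 0.84, was 1.38 with a pseudocount of 0.1 and 0.61 under median-ratio scaling. It was 1.04 without mitochondrially encoded genes in the totals, 0.48 under quantile normalization and 1.40 with voom. Leaving out each library gave 0.66 to 1.02 for the members and 0.22 to 0.28 for all tested genes. The median of all tested genes was 0.26 as deposited, 0.33 with a pseudocount of 0.1 and -0.04 under median-ratio scaling. For all tested genes it was 0.45 without mitochondrially encoded genes in the totals, -0.003 under quantile normalization and 0.34 with voom. Other filters took other sets of members, so their medians are not of the same genes. The median was 0.10 over all 77 members with no filter and 0.55 over the 17 that averaged 1 FPKM or more. With voom over genes with at least 10 fragments it was 1.08 over 67 members. The medians of all genes in those fits were 0.056 with no filter, 0.25 with the filter on the mean and 0.46 with voom. The 15 low members called higher by voom were 12 to 14 when leaving out each library, and the 2 called lower were 1 to 2. The differences of KCNE4 (-0.0214 under quantile normalization), KCNT1 (-0.14 under quantile normalization) and KCNJ11 (-0.0759 under median-ratio scaling) changed sign; none was called as deposited, and all 3 were called higher with totals free of mitochondrial genes. The causes of these changes were not tested. At this depth, members under 10 fragments could not be compared.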
